A study of Mus musculus with 18 samples.

Results

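The collagen chain genes of mouse osteosarcoma cells were followed through total and polysome-bound RNA, in cells with and without deletion of Prmt1, the main enzyme that places asymmetric dimethyl marks on arginine. A chain gene was any row whose symbol has the form Col, a number, the letter a and a number, and which was above 0 in at least 3 of the 18 libraries. That gave 41 of 43 such rows, out of 17515 genes above 0 in at least 3 libraries. Col9a2 stood just inside the limit, above 0 in 3 libraries, while Col19a1 (2 libraries) and Col13a1 (1 library) stood just outside it.

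The cells were lines grown from osteosarcomas of mice with conditional knockout of p53 and Rb, of mixed strain background and labelled as postnatal day 299. All carried floxed Prmt1 alleles (Prmt1 f/f) and stably expressed CreER, a Cre recombinase that 4-hydroxytamoxifen switches on. Control cells received the vehicle ethanol, and knockout cells received the drug. From each, RNA was taken from the cleared cytoplasmic lysate (Total) and from pooled sucrose gradient fractions below 3 ribosomes (Light) and above 3 ribosomes (Heavy). Each of the 6 groups held 3 libraries numbered 1 to 3, and nothing in the labels says whether these came from separate cultures or lines, so every p-value measures the spread between these libraries, which may be technical. No drug-treated cells without floxed alleles were among the samples, so an effect of the drug itself cannot be told apart from that of the deletion.

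Collagens are the main protein of bone and of most connective tissue. Each molecule winds chains around one another, and the winding needs the smallest amino acid, glycine, at regular steps, so that chain sequences are long runs of Gly-X-Y triplets. The fibrillar collagens make the ropes of the matrix. Type IV collagens make the sheet of basement membranes, type VI makes beaded filaments, and the FACIT collagens sit on the surface of fibrils. Osteoblasts, the cells an osteosarcoma resembles, secrete mostly type I collagen, built from Col1a1 and Col1a2 chains.

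The repeat can be read in the coding sequences themselves, and 4 are shown because the results turn on these chains. They are the first 90 bases of the longest unbroken run of triplets that open with a glycine codon (GGN), from the GENCODE transcript with the longest coding sequence, with each glycine codon that opens a triplet in capitals. Col1a1 lies at chr11:94936224-94953042 (plus strand), Col1a2 at chr6:4504814-4541544 (plus strand), Col4a1 at chr8:11198423-11312826 (minus strand) and Col4a2 at chr8:11312805-11449287 (plus strand), all in GRCm38.
Col1a1: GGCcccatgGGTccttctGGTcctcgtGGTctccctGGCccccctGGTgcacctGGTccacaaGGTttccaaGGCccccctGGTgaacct
Col1a2: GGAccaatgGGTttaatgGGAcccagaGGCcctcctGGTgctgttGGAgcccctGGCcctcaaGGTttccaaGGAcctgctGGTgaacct
Col4a1: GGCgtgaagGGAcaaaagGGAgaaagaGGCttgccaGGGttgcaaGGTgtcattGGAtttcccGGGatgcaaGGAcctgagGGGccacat
Col4a2: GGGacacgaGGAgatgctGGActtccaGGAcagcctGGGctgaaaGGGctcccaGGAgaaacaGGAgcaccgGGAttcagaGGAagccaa
The Col1a1 run spans 338 triplets, from codon 168 to codon 1181, and the Col1a2 run 339 triplets. In Col4a1 the longest run is 40 triplets and in Col4a2 it is 66, because type IV chains carry many interruptions. Over the 41 genes the longest run went from 23 triplets (Col26a1) to 344 (Col3a1), with a median of 60, and glycine codons made up 9.07% to 31.1% of all codons. Coding sequences of the 41 genes had a median length of 4842 bases, against 1368 for all genes tested with a known length.

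Col4a1 and Col4a2 are neighbours that start back to back. The bases between their annotated starts, chr8:11312805-11312826 in RefSeq's table for GRCm38.p6, number 22 and are shown because the pair had the largest knockout differences in log2(CPM + 1). Capitals mark GGGCGG or its complement, the core of the GC box that Sp1-like factors bind.
Col4a2 strand: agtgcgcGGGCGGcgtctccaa
Col4a1 strand: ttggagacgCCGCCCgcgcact
Because the annotated exons of both genes share these bases on opposite strands, and the sources used here do not give the strand setting of the counting, reads there cannot be assigned to one gene with certainty. RefSeq promoter windows (250 bases before a start to 50 after it) were found for 32 of the 41 genes, 34 windows in all. On either strand GGGCGG was present in 67.6% of them against 35.7% of all 32851 windows, CCAAT in 35.3% against 37.4%, and TATAAA in 11.8% against 13.6%. Such a match is a description of letters and does not show that a factor binds.

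Libraries held 32.3 to 57.9 M reads (M for 1000000). Prmt1 in Heavy RNA was 412, 378 and 370 CPM (reads per 1000000) in control libraries 1 to 3 and 64.4, 121 and 145 CPM in the knockout ones. In Total RNA it was 256, 277 and 285 against 147, 176 and 173 CPM, and in Light RNA 255, 243 and 218 against 166, 229 and 235 CPM. Control and knockout did not overlap in Heavy and Total RNA, but in Light RNA knockout libraries 2 and 3 lay within the control range. Some libraries deviated in most chains at once. In Heavy knockout RNA, 16 of the 17 chains that averaged 5 CPM or more were above their group mean in library 1, with a mean deviation of 0.48 on the log2 scale, and in library 2 only 1 was (-0.37). In Light knockout library 1 it was 14 of 17 (0.22), while Total knockout libraries 1 and 3 were alike, with 12 and 11. Among controls, Heavy library 1 had 0 of 17 above its group mean (-0.21) and Total library 1 had 1 (-0.22). For the knockout comparisons, values without a library are given where a call rests on it.

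Type I chains were the most abundant. Averaged over all libraries and divided by coding length, Col1a1 stood at 465 and Col1a2 at 439 CPM per kilobase, followed by Col3a1 at 107, Col5a2 at 96.8, Col6a1 at 75.3, Col5a1 at 54.5 and Col6a2 at 54.1. Col1a1 and Col1a2 differed by less than the spread between libraries, as did Col5a1 and Col6a2. In control cells alone Col1a2 was the higher of the type I chains in every fraction by the mean ratios per kilobase given further on. In Heavy control library 2, however, Col1a1 was the higher (ratio 1.02). In all, 17 chains averaged 5 CPM or more, 4 had 1 to 5 CPM (Col27a1, Col4a2, Col6a4 and Col23a1), and 20 were under 1 CPM, of which 9 were under 0.1 CPM. Reads were found in all 18 libraries for 29 genes. Among the rare ones were the cartilage chain Col11a1, the hypertrophic cartilage chain Col10a1 and the Alport chains Col4a3 and Col4a4.

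Summed over the 41 genes, collagen messages made up 0.605% ± 0.103 (SD, n = 3) of control Total RNA and 0.706% ± 0.0866 of knockout Total RNA. In Light RNA the control libraries summed to 3190, 2886 and 2422 CPM and the knockout ones to 6924, 4489 and 5079 CPM. In Heavy RNA they were 3440, 4801 and 4469 CPM in control and 13087, 5861 and 7905 CPM in knockout cells. The Light and Heavy groups did not overlap, with knockout means 1.94 and 2.11 times the control means (exact two-sided permutation test, p = 0.1 in each, the smallest that 3 against 3 allows). The Total groups overlapped, at 1.17 times (exact p = 0.3). The difference in Total RNA was 1005 CPM with Col1a1 and 201 CPM without it, so most of it lay in that gene, and it was 447 CPM without control library 1. The Heavy difference was 4715 CPM, and 2647 CPM without knockout library 1. A difference in CPM could come from more or fewer cells making a message or from more or less message in each cell, which bulk RNA cannot tell apart.

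**Figure D1:**
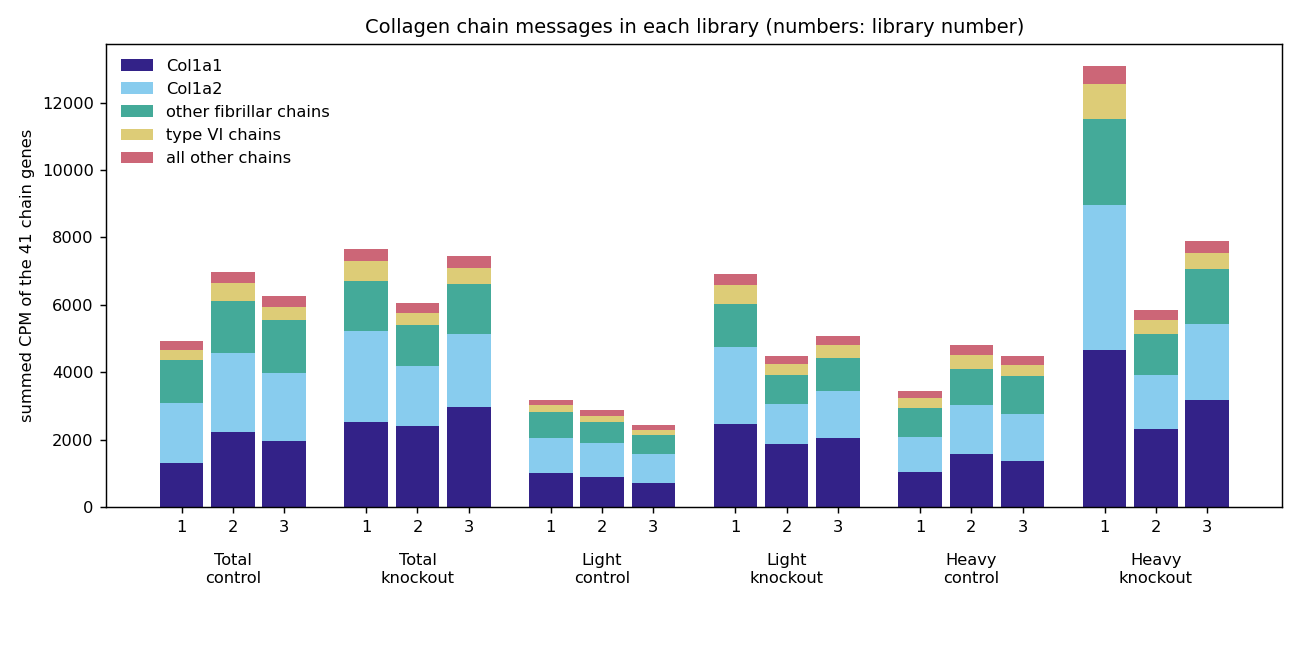
Summed level of the 41 collagen chain genes in each library, in CPM, stacked by chain or chain group, for the 6 groups with libraries 1 to 3 of each. Heavy knockout library 1 reaches 13087 CPM, and all Light and Heavy knockout libraries lie above their controls.

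More chain genes passed the test in polysome RNA than in Total RNA, and every call was an increase. In Light RNA 16 of the 41 genes rose and 0 fell (limma on log2(CPM + 1), Benjamini-Hochberg adjusted p under 0.05 over all 17515 genes), where 26.8% of all genes were called higher and 12.7% lower. Heavy RNA also gave 16 higher and 0 lower (18.5% and 10.4% of all genes), and Total RNA 7 higher and 0 lower (16.1% and 10.3%). In the lower direction, unadjusted p was under 0.05 for 2 genes in Light, 0 in Heavy and 1 in Total RNA, and limma's voom on recovered reads called 0 in each. The count in Total RNA was close to its background. Among the 17 chains of at least 5 CPM, 2 rose in Total (14.8% of genes at that level were called higher), 10 in Light (33.2%) and 10 in Heavy (21.5%). Every knockout library was above every control library for 4 of these 17 in Total (25.1% of genes at that level), 13 in Light (39.9%) and 10 in Heavy RNA (25.7%), and below for 1 in Total RNA (28.8%).

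The median log2 difference of the 41 chains was 0.10 in Total, 0.39 in Light and 0.34 in Heavy RNA, where the median over all genes was 0.01, 0.05 and 0.02. For the 17 chains of at least 5 CPM it was 0.19, 0.68 and 0.91, beside -0.03, 0.14 and 0.02 for all genes at that level. The Light result moved with the scaling: with median-of-ratios factors 12 chains were higher and 2 lower, and with quantile normalization 14 and 2. Over all genes in Light RNA the same step turned 4702 higher and 2224 lower calls into 3197 and 3716, and in Heavy RNA 3242 and 1819 into 2547 and 3158, where the chains gave 16 higher and 0 lower calls, with Col9a3 called in place of Col12a1 and 9 instead of 10 among those of at least 5 CPM. Fitted on the Heavy libraries alone, 10 chains rose instead of 16. Of the 17 chains of at least 5 CPM, 6 were called higher in Heavy RNA without control library 1 and 6 without knockout library 1.

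Of the 41 genes, 6 rose in all 3 fractions (Col4a1, Col4a2, Col18a1, Col23a1, Col17a1 and Col5a3) and 7 in Light and Heavy without a call in Total RNA (Col1a1, Col5a1, Col6a1, Col6a3, Col8a1, Col15a1 and Col16a1). Col6a2 and Col7a1 were called in Light alone, Col1a2, Col12a1 and Col4a4 in Heavy alone, and Col9a3 in Total and Light. The remaining 22 were called in no fraction, among them Col3a1, Col5a2, Col2a1, Col4a5 and Col8a2. A call in one fraction and not in another is no test of the difference, which is given further on.

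**Figure D2:**
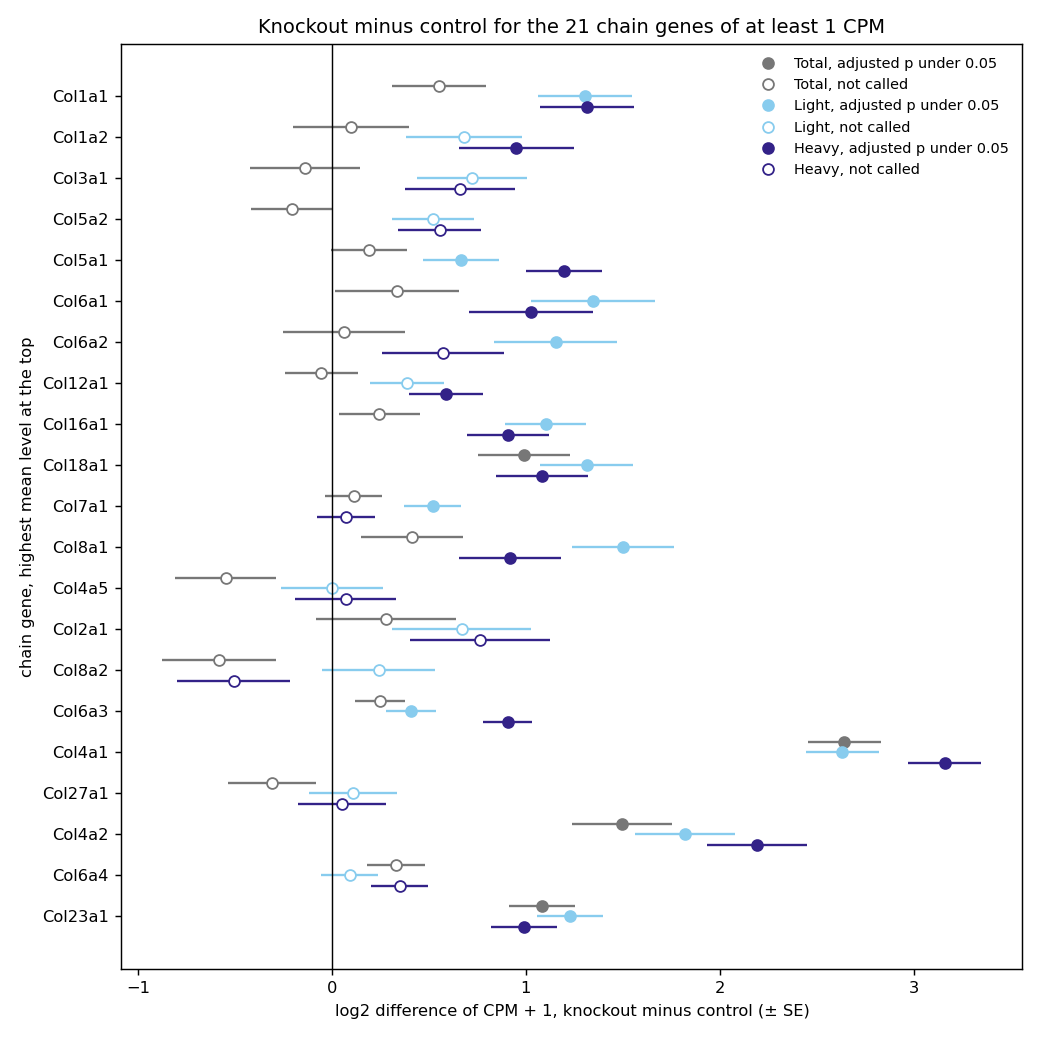
Log2 difference of CPM + 1, knockout minus control, with its standard error, for the 21 chain genes of at least 1 CPM in Total, Light and Heavy RNA, ordered by mean level. Filled points have an adjusted p under 0.05. Col4a1 lies furthest to the right, and Col1a1 is filled in Light and Heavy only.

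The fibrillar chains came first by level. Col1a1, the major chain of the type I molecule, was 1004, 896 and 699 CPM in the Light control libraries and 2473, 1870 and 2059 CPM in the Light knockout ones. In Heavy RNA it was 1042, 1571 and 1366 against 4661, 2329 and 3189 CPM. Both fractions separated fully, and the log2 difference was 1.31 ± 0.24 (SE, adjusted p = 0.000464) in Light and 1.32 ± 0.24 (adjusted p = 0.000606) in Heavy RNA. Total RNA held 1317, 2214 and 1952 CPM in control and 2532, 2397 and 2966 CPM in knockout cells, which also did not overlap, with a log2 difference of 0.55 ± 0.24 that missed the threshold (adjusted p = 0.106).

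Col1a2 is the minor chain of the same molecule. It was 1050, 1460 and 1388 CPM in Heavy control and 4304, 1587 and 2254 CPM in Heavy knockout libraries, a rise of 0.95 ± 0.30 (adjusted p = 0.0242). Library 1 was the highest by far, and the call was lost without it (0.56, adjusted p = 0.121) or without control library 1 (0.80, adjusted p = 0.101). In Light RNA the groups were also apart, at 1035, 994 and 871 against 2286, 1173 and 1383 CPM, but the difference of 0.68 ± 0.30 missed the threshold (adjusted p = 0.0806). In Total RNA they overlapped, with a difference of 0.10 ± 0.30.

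Col3a1, which mixes with type I collagen in soft tissue, was 280, 232 and 206 against 577, 307 and 342 CPM in Light RNA. The groups did not overlap, yet the difference of 0.72 ± 0.28 stayed just outside the threshold (adjusted p = 0.0529). It was called with voom (adjusted p = 0.0321), the replicate block (0.0344), the Light groups alone (0.0454), a filter at 1 CPM (0.0308) or pseudocount 0.1 (0.0416), and without the knockout libraries numbered 1 at a smaller difference (0.45, adjusted p = 0.0283). In Heavy RNA, knockout library 2 (443 CPM) lay within the control range of 352 to 444 CPM. Col5a2, a type V chain, differed by 0.52 ± 0.21 in Light and 0.56 ± 0.21 in Heavy RNA (adjusted p = 0.0624 and 0.0608).

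Col5a1, a chain of the type V collagen that nucleates fibrils, rose in both polysome fractions. It went from 180, 192 and 222 to 615, 324 and 468 CPM in Heavy RNA, a log2 difference of 1.20 ± 0.19 (adjusted p = 0.000212), with every knockout library above every control. In Light RNA it rose by 0.67 ± 0.19 (adjusted p = 0.0121), a call lost with median-of-ratios scaling (0.44, adjusted p = 0.0888) or without Light control library 3 (0.58, adjusted p = 0.0542). The scarce type V chain Col5a3 stood at 0.226 to 0.252 CPM in Heavy control and 0.765 to 1.98 CPM in Heavy knockout libraries, with 7 to 16 reads per control library over all fractions and 24 to 66 per knockout library. Its log2 differences were 0.53 in Total, 0.76 in Light and 0.89 in Heavy RNA. The Total call was lost with 3 of the 6 libraries left out singly (Total control 2, Total control 3 and Total knockout 3), at adjusted p from 0.0503 to 0.107.

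Col2a1, the cartilage chain, went against the others in the libraries numbered 1. In Light knockout RNA it was 11.2 CPM in library 1 and 29.4 and 26.2 CPM in libraries 2 and 3, where the controls were 14.8, 12.8 and 10.6 CPM. Total RNA showed the same split, at 11.1, 31.7 and 30.1 CPM in knockout cells. The difference passed the threshold in no fraction with all libraries, at 0.28, 0.67 and 0.76 in Total, Light and Heavy RNA. Without the 3 knockout libraries numbered 1 it was 0.74, 1.08 and 1.01, with adjusted p of 0.00294, 0.000108 and 0.000292. With only the library 1 of the fraction compared left out, the adjusted p was 0.121, 0.025 and 0.0704. Sox9, the cartilage factor that switches Col2a1 on, rose from 10.5 ± 1.13 to 27.1 ± 3.52 CPM in Total RNA. Of other cartilage markers, Matn3 was called lower in Total RNA (0.742 to 0.335 CPM, adjusted p = 0.0097) and in Heavy RNA. Acan and Comp, under 0.2 CPM, were not called. Among the chains, Col9a3 of the cartilage type IX collagen was called higher in Total (0.55) and Light RNA (0.57). Its reads are uncertain, as stated further on.

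The type VI chains Col6a1 and Col6a3 rose in both polysome fractions and Col6a2 in Light RNA. Col6a1 was 109, 101 and 72.7 CPM in Light control and 340, 192 and 206 CPM in Light knockout RNA, with a log2 difference of 1.35 ± 0.32 (adjusted p = 0.00331). The Heavy libraries held 140, 200 and 165 against 611, 232 and 277 CPM, a difference of 1.03 ± 0.32 (adjusted p = 0.0237) that was 0.61 (adjusted p = 0.124) without knockout library 1 and missed the threshold without control library 1 (0.90, adjusted p = 0.0907) or 3 (1.02, adjusted p = 0.0587) as well. Col6a2 rose in Light RNA by 1.15 ± 0.32, while its Heavy groups overlapped. Col6a3 was low but even between libraries, at 4.12, 4.73 and 5.90 against 11.9, 8.76 and 9.61 CPM in Heavy RNA, a rise of 0.91 ± 0.13 (adjusted p = 5.53e-05). Its smaller Light rise, 0.41 ± 0.13, was not called with either of the other scalings.

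Of the fibril-surface chains, Col16a1 went from 31.7, 26.0 and 21.7 to 67.8, 48.9 and 57.0 CPM in Light RNA and from 47.0, 48.9 and 49.8 to 136, 67.3 and 84.6 CPM in Heavy RNA. No knockout library reached down to the controls in either, and the differences were 1.10 ± 0.21 and 0.91 ± 0.21. Col12a1, a tendon and bone FACIT, rose in Heavy RNA by 0.59 ± 0.19 (adjusted p = 0.0285), and the call was lost without knockout library 1 (0.42, adjusted p = 0.126) or without control library 1 (0.36, adjusted p = 0.166). In Total RNA both genes overlapped between groups.

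Col8a1, a short-chain collagen of vessel walls and the eye, rose from 7.33, 7.62 and 11.1 to 35.4, 21.9 and 22.6 CPM in Light RNA, by 1.50 ± 0.26 (adjusted p = 0.000286). Its Heavy rise of 0.92 ± 0.26 was not called without knockout library 1 (0.60, adjusted p = 0.0766) or control library 1 (0.75, adjusted p = 0.0735). Its partner Col8a2 was 15.0, 27.0 and 18.1 CPM in Total control and 16.2, 11.1 and 11.3 CPM in Total knockout RNA, a difference of -0.58 ± 0.29 that missed the threshold. Without the knockout libraries numbered 1, Col8a2 was called lower in Total (-0.75, adjusted p = 0.0291) and Heavy RNA (-0.84, adjusted p = 0.0162). Col7a1, the anchoring fibril chain of skin, rose in Light RNA by 0.52 ± 0.15, a call lost with median-of-ratios scaling (0.30, adjusted p = 0.114), quantile normalization (0.31, adjusted p = 0.117) or without Light knockout library 1 (0.41, adjusted p = 0.0573). It lay at 33.1, 34.9 and 31.5 against 43.0, 30.2 and 32.7 CPM in Heavy RNA, which overlapped.

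The multiplexin Col18a1, the precursor of endostatin, rose in every fraction. It was 11.4, 17.1 and 15.3 CPM in Total control and 36.9, 23.2 and 30.4 CPM in Total knockout RNA, a log2 difference of 0.99 ± 0.24 (adjusted p = 0.0054). Differences in Light and Heavy RNA were 1.31 ± 0.24 and 1.08 ± 0.24, and none of the 3 comparisons overlapped. Its relative Col15a1 was scarce, at 0.056 to 0.327 CPM in Heavy control and 0.767 to 1.05 CPM in Heavy knockout libraries. Its Light call (0.46, adjusted p = 0.0297) was lost with median-of-ratios scaling (adjusted p = 0.0513), quantile normalization (0.148) or without any 1 of the 3 Light control libraries (0.0606 to 0.0749) or Light knockout library 2 (0.26, adjusted p = 0.166).

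Col4a1 and Col4a2, the chains of ordinary basement membrane whose shared start is printed above, had the largest differences in log2(CPM + 1) of the 41 genes in all 3 fractions. By ratio of mean CPM in Total RNA, Col23a1 (7.26) stood above Col4a2 (4.43). Col4a1 was 0.904, 1.94 and 1.40 CPM in Total control and 10.5, 15.1 and 16.6 CPM in Total knockout RNA. In Light RNA it went from 1.16, 0.654 and 0.595 to 8.24, 12.2 and 10.1 CPM, and in Heavy RNA from 0.879, 1.20 and 0.882 to 17.3, 15.8 and 17.2 CPM. The ratios of mean CPM were 9.95, 12.7 and 16.95, and the log2 differences 2.64, 2.63 and 3.16, each ± 0.19 (adjusted p = 6.45e-08, 5.37e-08 and 1.33e-08). These levels rest on 23 to 101 reads in each control library and 358 to 698 in each knockout library.

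Col4a2 was 1.01, 1.61 and 1.46 against 3.02, 8.22 and 6.85 CPM in Total RNA and 0.603, 0.980 and 1.24 against 6.53, 8.15 and 8.87 CPM in Heavy RNA. Knockout library 1 was the lowest of its group in each fraction for Col4a2. The log2 differences were 1.50, 1.82 and 2.19, each ± 0.26, and the control libraries held 13 to 84 reads. Col4a5, a chain of the kidney filter, was not called. In Total RNA it was 28.8, 31.8 and 32.3 against 26.7, 17.5 and 19.3 CPM, lower in every knockout library, with a difference of -0.55 ± 0.26 (adjusted p = 0.139). It was called lower in Total RNA without the knockout libraries numbered 1 (-0.72, adjusted p = 0.00559), and when only the Total groups were fitted (adjusted p = 0.037).

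**Figure D3:**
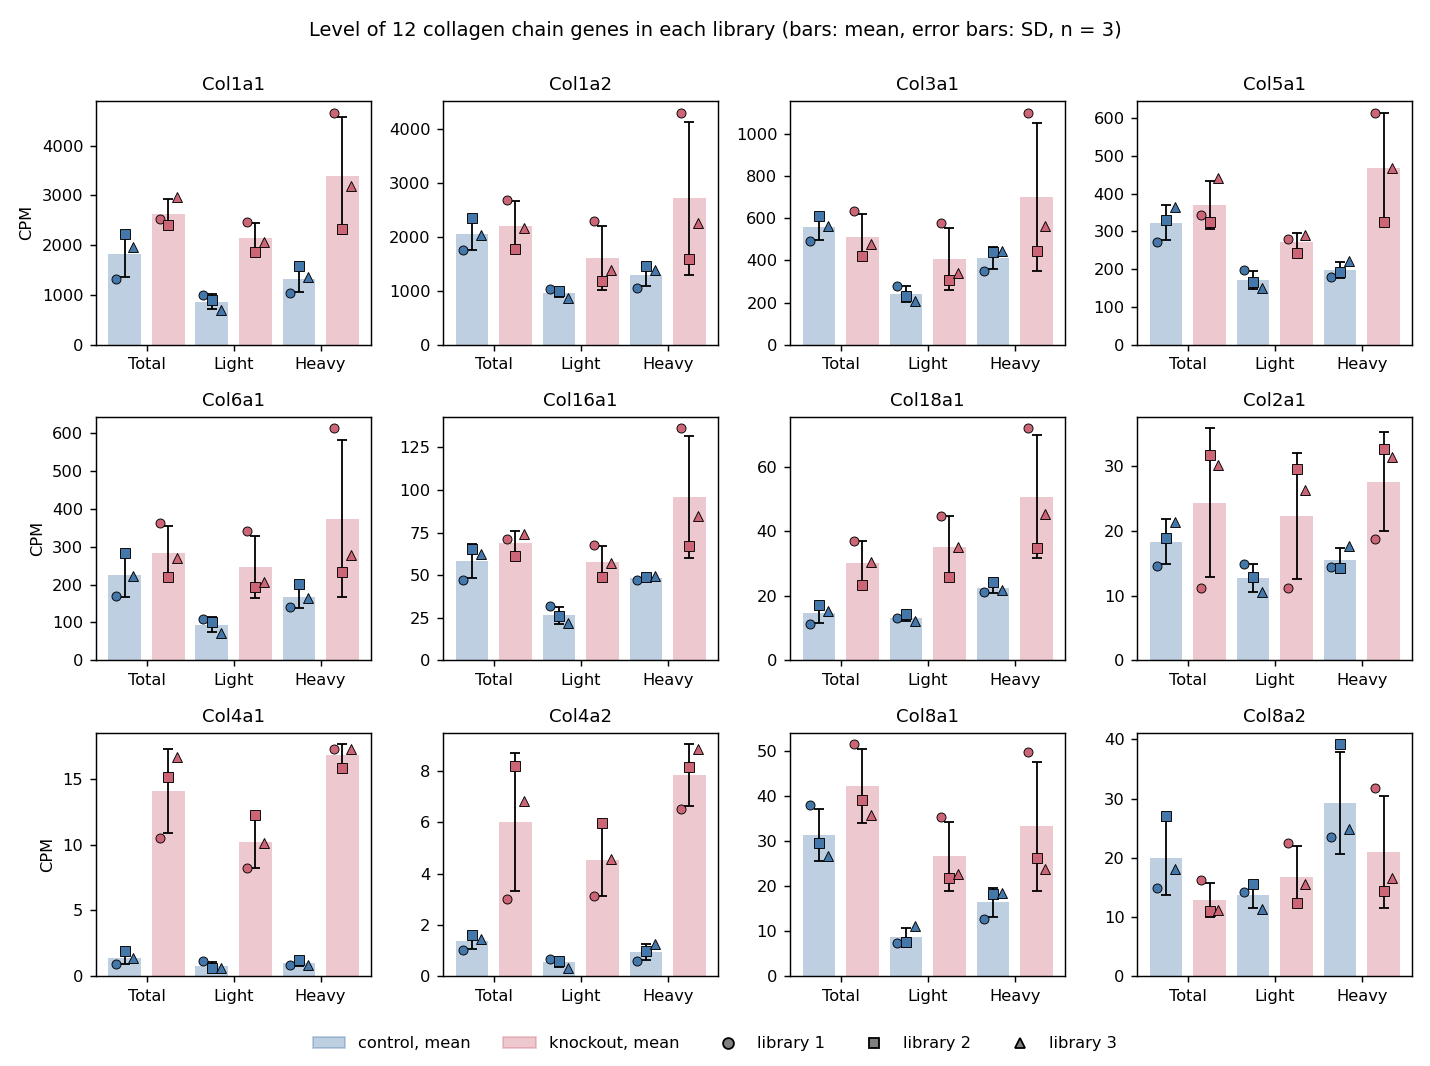
Level in CPM of 12 chain genes in every library of Total, Light and Heavy RNA, with bars for the mean and error bars for the SD (n = 3). Col4a1 knockout libraries lie at 8.24 to 17.3 CPM against 0.595 to 1.94 CPM in controls, and for Col2a1 knockout library 1 is the lowest of its group in each fraction.

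The transmembrane chains Col23a1 and Col17a1, the latter a skin hemidesmosome protein, were scarce and rose in all fractions. Col23a1 was 0.133, 0.269 and 0.275 CPM in Total control and 2.32, 1.23 and 1.37 CPM in Total knockout RNA, with log2 differences of 1.08, 1.23 and 0.99 in Total, Light and Heavy RNA (each ± 0.17). Col17a1 was 0.336 to 0.611 CPM in Total control and 0.889 to 1.54 CPM in Total knockout RNA, on 6 to 23 reads per control library over all fractions. Since 1 is added before the log, these log2 differences understate the change of such low genes. Col9a3, at 0.153 to 0.213 against 0.528 to 0.929 CPM in Total RNA, overlaps exons of Tcfl5 on the other strand, so its reads are uncertain. Col17a1, Col5a3, Col9a3, Col15a1 and Col4a4 have means under 1 CPM and were singled out after their values were seen, as were Matn3, Acan, Comp and Loxl3.

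The proportions of partner chains were compared within each library. With 3 libraries against 3 no ratio could reach a p under 0.05, so the test cannot decide whether a proportion changed. The ratio of Col1a1 to Col1a2, per kilobase of coding sequence, was 0.841 ± 0.0796 (SD, n = 3) in Light control and 1.31 ± 0.255 in Light knockout RNA, and 0.961 ± 0.0485 against 1.25 ± 0.197 in Heavy RNA, with no overlap in either. In Total RNA it was 0.835 ± 0.112 against 1.15 ± 0.227, where knockout library 1 lay with the controls. The Col4a1 to Col4a2 ratio went from 1.04 ± 0.166 to 2.64 ± 0.848 in Total RNA. Col6a1 to Col6a2 went from 1.32 ± 0.0307 to 1.59 ± 0.0617 there, a narrow spread in both groups. Col8a1 to Col8a2 went from 0.545 ± 0.134 to 1.51 ± 0.193 in Heavy RNA. In 13 of the 15 ratio comparisons (5 pairs in 3 fractions) all knockout libraries were above all controls, each with an exact two-sided permutation p of 0.1, the smallest that 3 against 3 allows, and 0.115 after Benjamini-Hochberg adjustment over 15. The exceptions were Col1a1 to Col1a2 in Total and Col5a1 to Col5a2 in Light RNA (exact p = 0.3). A ratio shows unequal change and does not say which chain moved.

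**Figure D4:**
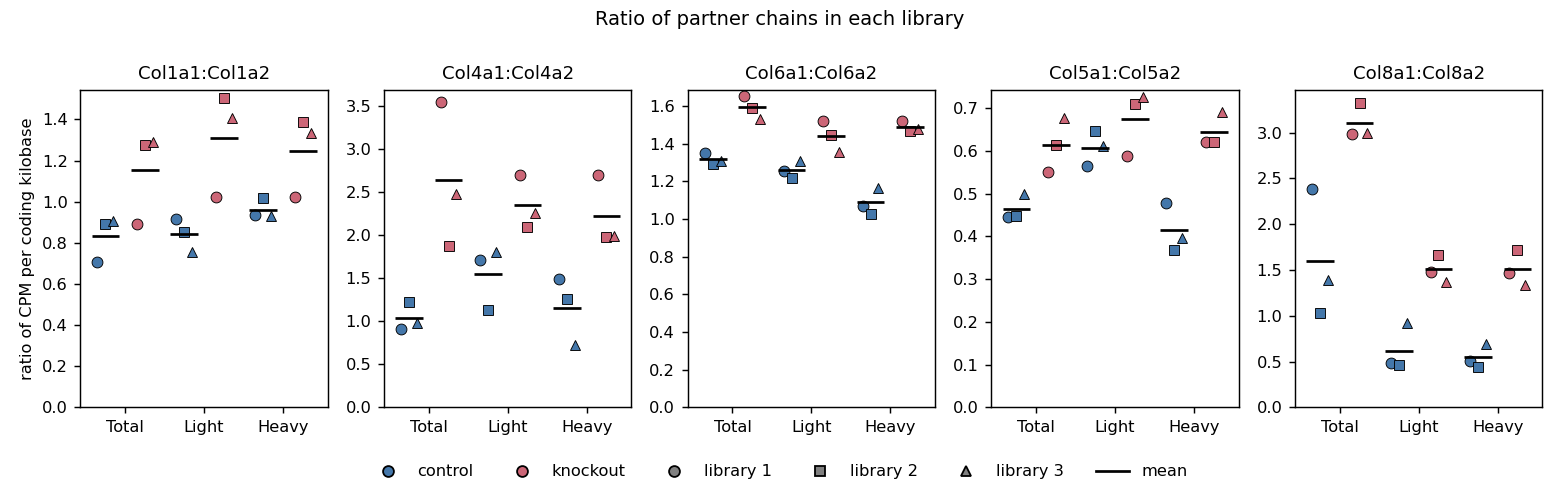
Ratio of CPM per coding kilobase between partner chains in every library, with a line at the group mean. Knockout libraries lie above controls in 13 of the 15 comparisons, for example Col8a1 to Col8a2 in Heavy RNA, at 1.51 against 0.545.

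Within a genotype, Heavy against Light RNA asks which messages carry more ribosomes. Chain coding sequences were longer than those of all genes (medians 4842 and 1368 bases), and the backgrounds were not matched for length. A refit with the length trend removed is given in the last section. In control cells 11 of the 41 chains were higher in Heavy and 2 lower (backgrounds 23.6% and 27.1%), and in knockout cells 9 were higher and 4 lower (16.8% and 26.8%). These counts come from the main fit, which does not pair libraries. With the replicate number as a block, which pairs Heavy and Light libraries of the same number, the knockout count became 14 higher and 4 lower. Median-of-ratios scaling gave 15 higher and 2 lower in knockout cells, and quantile normalization 14 and 1. Without Heavy control library 2 or Light control library 3 the control count was 6 higher, and without Heavy knockout library 1 the knockout count was 5. Among the 17 chains of at least 5 CPM, 10 were higher in control cells (39.2% of genes at that level) and 8 in knockout cells (28.0%), or 13 with the block.

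Col1a1, Col3a1, Col5a2 and Col16a1 were called higher in Heavy RNA in both genotypes. Col1a1 passed narrowly (adjusted p = 0.0449 in control and 0.0475 in knockout cells), as did Col3a1 in knockout cells (0.0478). Over the named chains, a Heavy minus Light call was lost in 17 refits without some libraries in control cells and 21 in knockout cells. Those refits are not listed by gene. Col5a2, for example, was 284, 211 and 201 CPM in Light and 307, 425 and 455 CPM in Heavy control RNA, a difference of 0.77 ± 0.21 (adjusted p = 0.006), and it was 0.80 ± 0.21 in knockout cells. The largest Heavy minus Light differences in control cells were those of Col6a2 (1.04 ± 0.32) and Col8a2 (1.01 ± 0.29). Col6a4, a rare type VI chain, was higher in Light RNA in both genotypes, at 2.30, 2.70 and 2.07 against 1.06, 1.23 and 0.950 CPM in control cells. Col4a1 and Col4a2 were called higher in Heavy RNA in knockout cells, by 0.68 ± 0.19 and 0.70 ± 0.26.

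**Figure D5:**
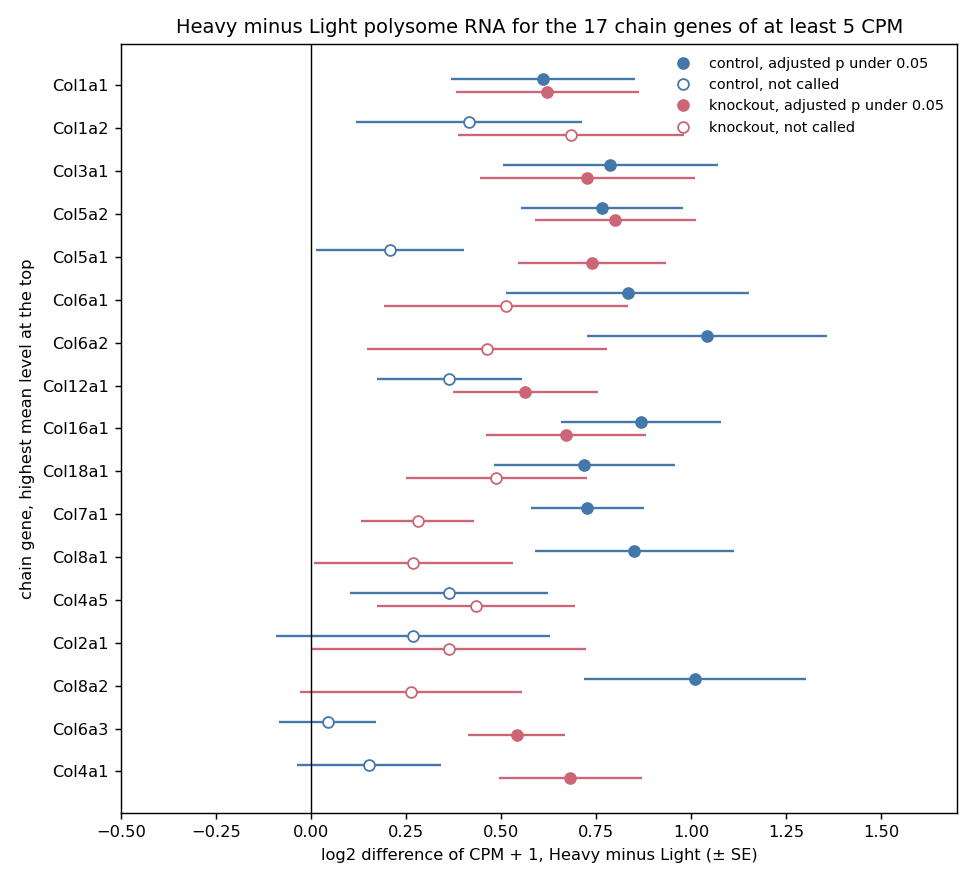
Log2 difference of CPM + 1, Heavy minus Light RNA, with its standard error, for the 17 chain genes of at least 5 CPM in control and knockout cells. All points lie to the right of 0, and filled points have an adjusted p under 0.05.

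Whether the knockout effect differed between fractions was tested directly, and no chain passed. For Heavy against Light, limma called 0 of the 41 genes (2.87% of all genes were called), 4 had an unadjusted p under 0.05, and voom called 0. Heavy against Total gave 0 calls, 7 with an unadjusted p under 0.05 and 0 by voom, where 0.0114% of all genes were called. Light against Total gave 0, 7 and 0, where 0.0% of all genes were called. Col1a1 rose by 0.76 ± 0.34 more in Heavy and 0.75 ± 0.34 more in Light than in Total RNA, and Col5a1 by 1.00 ± 0.27 more in Heavy than in Total (adjusted p = 0.272). The 7 chains with an unadjusted p under 0.05 in Heavy against Total were all higher, as were the 7 in Light against Total. The share of all genes at that unadjusted cutoff is not given here. These counts and their direction therefore cannot be read as a result about the chains. Because almost no gene at all was called in either, 0 chain calls cannot decide whether these effects differed. The larger counts in polysome RNA are by themselves no test of such a difference.

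The genes that make, fold and cut collagen changed in both directions, and their counts stand beside the same backgrounds as the chains. Of 14 tested genes of prolyl and lysyl hydroxylation and glycosylation, 6 rose and 3 fell in Total, 8 and 2 in Light, and 5 and 3 in Heavy RNA. P4ha2, a catalytic subunit of prolyl 4-hydroxylase, rose from 77.4 ± 10.8 to 152 ± 10.1 CPM in Total RNA (log2 difference 0.97 ± 0.16) and by 1.67 and 1.28 in Light and Heavy RNA, while P4ha3, another such subunit, fell by 0.70 in Total and 0.80 in Heavy RNA. The median log2 difference of this list was 0.31 in Total, 0.97 in Light and 0.17 in Heavy RNA. Of 14 genes of folding, export and propeptide removal, 3 rose and 3 fell in Total, 7 and 3 in Light, and 4 and 2 in Heavy RNA. Bmp1, the protease that clips procollagen, rose from 106 ± 6.94 to 212 ± 20.5 CPM in Total RNA, and its enhancer Pcolce from 511 to 983 CPM. Mia3, which helps load procollagen for export, rose by 0.71 ± 0.16.

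Of 5 crosslinking enzymes, 2 rose and 1 fell in Total, and 3 rose and 1 fell in both Light and Heavy RNA. Lox, the most abundant of them by CPM, was called in no fraction, with differences of -0.54, 0.24 and -0.56, and Loxl3 rose by 0.35 in Light and 0.32 in Heavy RNA. Loxl1 fell in Total, Light and Heavy RNA, by 1.48, 1.42 and 1.51 on the log2 scale, from 339 ± 53.6 to 120 ± 7.25 CPM in Total RNA, while Loxl2 rose by 1.11, 1.97 and 1.68 and Loxl4 by 0.55, 1.42 and 0.86. Of 8 collagen receptors tested, 2 rose in Total, 4 in Light and 3 in Heavy RNA, and 1 fell, Itga1 in Light RNA. Mrc2, an uptake receptor, rose by 0.70, 1.40 and 1.50, and the kinase Ddr2 by 0.98, 1.47 and 1.28. Of 9 genes of degradation and its inhibitors, 3 rose in Total, 7 in Light and 3 in Heavy RNA, and 1 fell, the inhibitor Timp1 in Heavy RNA. Other inhibitors were among those that rose: Timp4 in Total and Light, Timp2 in Light and Heavy, and Timp3 in Light RNA. The gelatinase Mmp2 rose from 68.9 ± 9.43 to 147 ± 34.5 CPM in Total RNA. Of 16 regulators, 3 rose and 4 fell in Total, 4 and 4 in Light, and 4 and 4 in Heavy RNA. Tgfb3 fell by 1.35, 1.12 and 1.39 and Tgfb2, also called lower in Light RNA, by 1.52 in Total and 1.25 in Heavy RNA. Both are ligands known to raise collagen synthesis. Tgfb1, another such ligand, went the other way, by 0.30, 0.30 and 0.39, and was called higher in Heavy RNA only. Sox9 rose by 1.28, 1.73 and 1.69.

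The label of the cells was compared with marker genes. Among osteoblast markers, Alpl, Runx2 and Spp1 were at 5 CPM or more, while Bglap, Bglap2, Dmp1, Ibsp and Phex were under 1 CPM. Of 9 mesenchymal markers 7 were at 5 CPM or more, with Dcn and Lum under 1. All 7 endothelial markers were under 1 CPM, and their sum was 0.134 to 0.336 CPM in Total control and 0.841 to 1.47 CPM in Total knockout libraries. Epithelial markers (7 genes, Krt14 the most abundant) summed to 0.718 to 1.37 against 7.38 to 10.8 CPM, and macrophage markers (8 genes, Csf1r the most abundant) to 6.67 to 8.94 against 16.4 to 20.0 CPM. These sums moved in the same direction as Col4a1, Col4a2, Col17a1 and Col18a1, and their part in the result was not tested.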

How the data were processed

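The deposited values were log2 values made by the authors in one table of 18 libraries. In each library 2 to the power of the value, minus 1, summed to 1000000, so they are log2(CPM + 1). Per the submitters' processing notes, the authors used STAR, edgeR and mm10. No counter, annotation or version is named by the sources used here. Whole reads were recovered for 100% of values within a tolerance of 0.1. The labels name the TruSeq v2 kit and NextSeq sequencer.

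limma 3.58.1 in R 4.3.3 was fitted to the deposited log2 values of the 17515 genes above 0 in at least 3 libraries, with 6 group means, trended and robust variances and Benjamini-Hochberg adjustment, called at 0.05. It was tested on simulated data, with noise drawn separately for each gene and library. The simulation held no libraries that deviate in many genes at once, so it cannot speak to calls that rest on such libraries. Sums and ratios used exact two-sided permutation tests (scipy 1.17.1, Python 3.11.15). The files gave reads only after the log, so the count model was voom, as an alternative. Alternatives were 2 scalings, pseudocount 0.1, other filters, no trend, voom, fewer groups, the replicate block, coding length, and libraries left out. Named were chains with a mean of at least 5 CPM, chains called in a knockout comparison with at least 1 CPM, and up to 3 genes of each other list. Coding lengths and positions came from GENCODE vM21, matched by Entrez identifier. The members and lists were chosen with earlier results of these data known.

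Replicate numbers come from the labels. Within a genotype, Heavy and Light libraries of the same number deviated together (correlation of deviations control 0.294 to 0.396, knockout 0.278 to 0.558). The main fit did not pair them, and only the replicate block did. Control and knockout libraries of one number did not do so evenly (-0.419 to -0.217 in Heavy, -0.066 to 0.062 in Light and -0.129 to 0.492 in Total RNA). In the knockout comparisons the replicate block still joined libraries of one number across genotypes. Replicates correlated at 0.986 to 0.999 across genes, and none agreed within counting noise. Col9a1, Mia2, Gp6 and Mmp8 were not analysed here. A marker gene is not reported here.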

Additional observations from a re-analysis of the deposited data

Results flagged for a closer look

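No collagen chain gene showed a tested difference of the knockout effect between fractions, but 4 of the 66 tested genes of the processing, crosslinking, receptor, degradation and regulator lists did, where 2.87% of all genes were called. The knockout effect in Heavy minus that in Light RNA was -0.92 for P4hb, the shared subunit of prolyl 4-hydroxylase, -0.90 for Fkbp10, a procollagen chaperone, -0.82 for Colgalt1, a galactosyltransferase of collagen lysines, and -0.83 for Ctsk, a collagen-cutting protease (limma interaction terms, adjusted p = 0.0274, 0.014, 0.0134 and 0.037). Each rose in Light RNA (log2 differences 1.19, 1.04, 0.89 and 0.57) and was not called in Heavy RNA (0.27, 0.14, 0.06 and -0.26). With median-of-ratios scaling, which took the calls over all genes from 62 higher and 441 lower to 26 and 23, Colgalt1 passed (adjusted p = 0.0484) and P4hb (0.0842), Fkbp10 (0.068) and Ctsk (0.0894) did not. With quantile normalization (44 higher and 108 lower) Ctsk did not pass (adjusted p = 0.14) and the other 3 did. None of the 4 passed when only the Heavy and Light groups were fitted (adjusted p = 0.0587 to 0.108).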

How the results depend on the processing

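Direction and call of the named chains held in 1359 of 1494 refits with all libraries and in 962 of 1104 without some. Results not called in the main fit count as held here when they stayed uncalled with the same sign. Among those that held, 240 and 268 were differences of effects, Heavy minus Light, where no chain was called in the main fit. Removing the coding length trend gave 2 chains called lower in Total, 11 in Light and 7 in Heavy RNA, with or without the block (1 of at least 5 CPM in Total and in Heavy), and 5 lower in Heavy minus Light of control cells. In Total RNA a filter at a mean of 1 CPM left 4 chains higher, quantile normalization gave 1 lower, the Total groups alone 1 lower (1 of at least 5 CPM), and leaving out the knockout libraries numbered 1 gave 2 lower (2). In Light RNA each scaling, and the Light groups alone, gave 2 lower. In Heavy RNA quantile normalization gave 1 lower, the Heavy groups alone 10 higher (5 of at least 5 CPM), and leaving out knockout libraries numbered 1 gave 1 lower (1). Heavy minus Light in control cells had 1 lower without trend, and 4 with voom or with its groups alone. In knockout cells it had 14 higher and 1 lower with quantile normalization, 15 and 2 with median-of-ratios, 3 and 1 with its groups alone (2 higher of at least 5 CPM), 2 lower with the 1 CPM filter, and 14 higher with the replicate block (13 of at least 5 CPM). The block, which pairs libraries, changed no other count by over 1.5 times. The test of Heavy against Light gave 1 chain lower with the block and length trend removed, or without the knockout libraries numbered 1, and Light against Total 1 higher without them. Of the listed pathway genes, 12 rose in Heavy RNA with its groups alone and 18 fell with median-of-ratios.

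Leaving out 1 library gave 0 to 1 chains lower in each knockout comparison and 6 to 12 higher (4 to 11 of at least 5 CPM) and 1 to 2 lower for Heavy minus Light in control cells. In knockout cells it gave 5 to 11 (4 to 11) and 1 to 3, and chains of at least 5 CPM called higher in Heavy RNA were 6 to 12. The cause of these shifts was not tested. Comparisons between fractions have wide errors at 3 libraries a group.

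A sign change was seen in 30 refits with all libraries and 57 without some. In 2 of these, both for Col7a1 in Heavy RNA, the value was called, and in the others neither value was. With the coding length trend removed, with or without the replicate block, the knockout difference changed sign for Col1a2 (-0.0050), Col6a2 (-0.026) and Col7a1 (-0.042) in Total, Col4a5 in Light (-0.34), and Col4a5 (-0.21) and Col7a1 (-0.38, called) in Heavy RNA. So did Heavy minus Light of Col5a3 in control cells (-0.11) and the difference of knockout effects, Heavy minus Light, of Col3a1 (0.0017). Without the knockout libraries numbered 1 it changed sign for Col1a2 (-0.052) and Col6a2 (-0.10) in Total, Col4a5 in Light (-0.23), and Col4a5 (-0.25) and Col7a1 (-0.073) in Heavy RNA. The difference of effects then did so for Col1a1 (-0.14), Col2a1 (-0.072), Col4a5 (-0.028) and Col5a2 (-0.089). With quantile normalization these were Col4a5 in Light (-0.23) and Heavy (-0.0069), Heavy minus Light of Col15a1 in control (0.079) and Col23a1 in knockout cells (0.14), and the difference of effects of Col1a1 (-0.46), Col1a2 (-0.028) and Col3a1 (0.018). With median-of-ratios they were Col4a5 in Light (-0.21) and Heavy (-0.093) and Col7a1 in Heavy RNA (-0.094). Pseudocount 0.1 turned Col4a5 in Light RNA (-0.0014) and the difference of effects of Col17a1 (-0.073), and voom that of Col17a1 (-0.22) and Col9a3 (0.65).

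Leaving out 1 library, the knockout difference ranged over 0 for Col12a1 (-0.15 to 0.024), Col1a2 (-0.052 to 0.25) and Col6a2 (-0.14 to 0.26) in Total RNA. It did so for Col4a5 in Light (-0.23 to 0.20), and for Col4a5 (-0.25 to 0.35) and Col7a1 (-0.073 to 0.17) in Heavy RNA. Heavy minus Light did so in control cells for Col15a1 (-0.13 to 0.031), Col5a3 (-0.058 to 0.041) and Col6a3 (-0.074 to 0.14). In knockout cells it did so for Col23a1 (-0.27 to 0.086), Col2a1 (-0.050 to 0.61), Col5a3 (-0.053 to 0.33), Col8a1 (-0.053 to 0.48) and Col8a2 (-0.070 to 0.48). The difference of effects did so for Col12a1 (-0.025 to 0.38), Col16a1 (-0.48 to 0.026), Col18a1 (-0.51 to 0.0013), Col1a1 (-0.25 to 0.25) and Col1a2 (-0.13 to 0.59). It also did so for Col2a1 (-0.32 to 0.34), Col3a1 (-0.44 to 0.22), Col4a5 (-0.26 to 0.35), Col5a2 (-0.21 to 0.25) and Col5a3 (-0.055 to 0.32).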
